A study of Homo sapiens with 8 samples.

Results

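The data are RNA-seq counts of 10 genes that encode enzymes of glycolysis in A549 cells, a cell line derived from a human lung adenocarcinoma. The genes were chosen by name, 1 isozyme for nearly every step from glucose to lactate, and are 10 of the 58302 genes in the deposited count table. They are HK1, GPI, PFKP, ALDOA, TPI1, GAPDH, PGK1, ENO1, PKM and LDHA, and all 10 passed the filter on low counts. The cells had been transfected with an siRNA against APEX1, the gene of the DNA repair endonuclease APE1 (4 libraries, siAPEX1), or with a scramble control siRNA (4 libraries, siCTRL), and were collected 72 h later. Both groups are therefore transiently transfected cultures of 1 cell line, and untransfected cells were not analysed here. The comparison asks how transcript levels along the glycolytic pathway differ between the siAPEX1 and the siCTRL libraries.

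Glycolysis splits glucose into pyruvate in the cytosol. Hexokinase, phosphoglucose isomerase, phosphofructokinase and aldolase prepare and cleave the sugar, triosephosphate isomerase interconverts the resulting trioses, and the later enzymes, from glyceraldehyde-3-phosphate dehydrogenase to pyruvate kinase, yield ATP and NADH. Lactate dehydrogenase then reduces pyruvate to lactate and restores NAD+, a route that many tumour cells use even when oxygen is present. Several of these genes are classical targets of the hypoxia-inducible transcription factors, and GAPDH is widely used as a reference transcript, also in the qRT-PCR of the study.

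Between 1348386 and 1949886 counts fell on genes in each library, every siAPEX1 library being smaller than every siCTRL library, so library size and condition cannot be told apart. The 10 enzymes together held between 1505 and 2692 of these counts per library. APEX1 itself had 47 to 64 counts in the siCTRL libraries and 19470 to 27916 in the siAPEX1 libraries, against the label. A gene count cannot say whether a read came from the transcript or from the siRNA itself, so these counts do not measure the silencing, which the study examined at the protein level by Western blotting (not analysed here), and every direction given here follows the labels. The 7 markers of A549 and simple epithelium (such as KRT8, KRT18 and ALDH1A1) were all detected, with a summed level of 1070 to 1206 CPM (counts scaled to a common library size, as explained below) in the siCTRL libraries and 903 to 975 in the siAPEX1 libraries. They moved apart, the keratin genes KRT8, KRT18 and KRT19 falling (log2 fold changes of -1.01, -1.36 and -2.31) and AKR1B10 rising (0.83), while ALDH1A1 (-0.098) and AKR1C1 (0.028) did not pass the edgeR test and EPCAM lay under the filter on low counts. Markers of alveolar type II cells had at most 1 count per library (SFTPA1, SFTPA2 and NKX2-1 had 0), those of endothelium at most 1 (PECAM1 and CDH5 had 0) and those of fibroblasts at most 12. CD14, a monocyte marker, had 5 to 9 counts in the siCTRL libraries and 0 to 2 in the siAPEX1 libraries. The part of these markers in the results was not tested.

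The 10 enzymes did not move as a block. With libraries scaled by TMM factors (a trimmed mean that assumes most genes keep their level), GPI, PGK1, ENO1 and LDHA rose and TPI1 fell in the siAPEX1 libraries, while HK1, PFKP, ALDOA, GAPDH and PKM did not pass the test. With the libraries scaled by their total alone, only PGK1 still rose, TPI1, GAPDH and PKM fell, and PFKP, ALDOA and ENO1 changed sign. The largest difference was in PGK1, 1.78-fold, with a log2 fold change of 0.83 in edgeR and 0.84 in DESeq2. By the quasi-likelihood test of edgeR, adjusted over all genes by the Benjamini-Hochberg method, 5 of the 10 enzymes had an adjusted p of at most 0.05, beside 31.7% of the 5368 genes tested and 28.2% of the nuclear protein-coding genes among them. The 4 enzymes that were higher stand beside 15.9% of all genes tested, and the 1 that was lower beside 15.8%. In 3 of the 10 enzymes the CPM of the groups did not overlap, beside 28.9% of all genes, and 0 of the 10 passed a log2 fold change of at least 1 with that adjusted p, beside 9.28%. The median log2 fold change of the 10 was 0.25, with 6 above 0, beside a median of -0.0035 over all genes tested and -0.030 over the nuclear protein-coding genes. In a bulk sample, a lower share of expressing cells and less RNA per cell cannot be told apart.

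**Figure D1:**
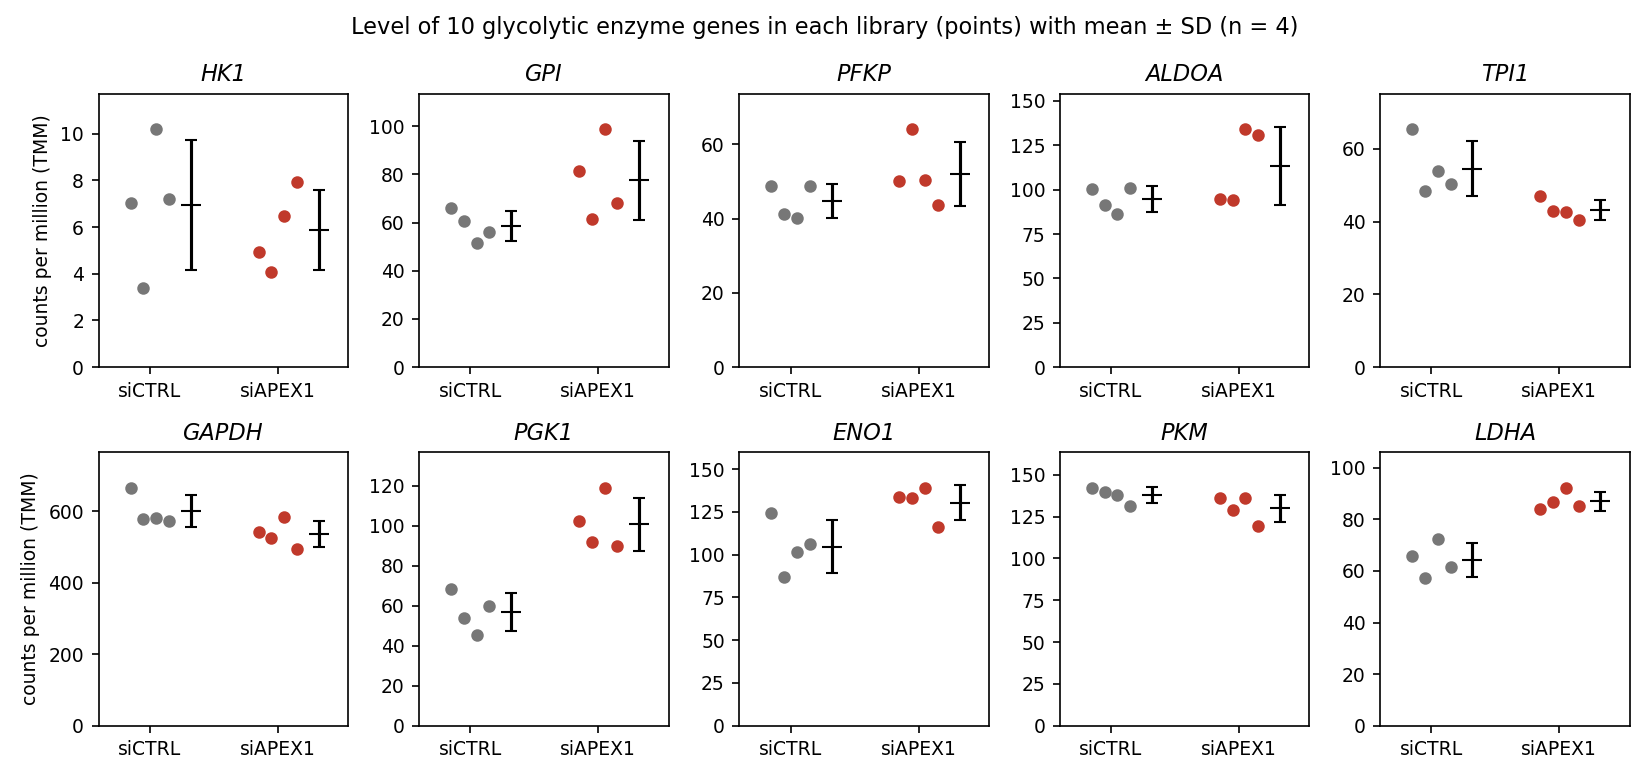
Level of each enzyme gene in CPM (TMM scaling) on a linear axis from 0, with 1 point per library, siCTRL in grey and siAPEX1 in red, and the mean ± SD of 4 libraries beside them. The siAPEX1 points of PGK1 and LDHA all lie above the siCTRL points and those of TPI1 all lie below, while the other 7 enzymes overlap between the groups.

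The promoters of 4 enzymes are shown, those of the 3 later steps that rose under TMM (PGK1, LDHA and ENO1, the last changing sign with library size alone) and of the 1 that fell (TPI1), because the genes of the hypoxia-inducible factors also differed between the groups (given further on). They are RefSeq windows on GRCh38.p14, 250 bases before to 50 bases after a transcription start, written 5′ to 3′ on the strand of the gene. Capitals mark ACGTG and GCGTG, the core letters of the element these factors bind, found on either strand (the opposite strand reads CACGT or CACGC), and a CACGTG holds ACGTG on both strands. The windows are chrX:78103998-78104297 (plus strand) for PGK1, chr11:18394313-18394612 (plus) for the first LDHA start, chr1:8878637-8878936 (minus) for ENO1 and chr12:6867281-6867580 (plus) for the first TPI1 start.
PGK1: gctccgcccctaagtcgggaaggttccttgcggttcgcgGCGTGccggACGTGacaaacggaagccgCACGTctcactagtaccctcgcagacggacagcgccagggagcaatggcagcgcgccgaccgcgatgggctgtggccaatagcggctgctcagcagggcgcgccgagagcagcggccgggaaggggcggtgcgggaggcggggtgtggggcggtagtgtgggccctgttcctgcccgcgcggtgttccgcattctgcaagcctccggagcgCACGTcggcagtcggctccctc
LDHA: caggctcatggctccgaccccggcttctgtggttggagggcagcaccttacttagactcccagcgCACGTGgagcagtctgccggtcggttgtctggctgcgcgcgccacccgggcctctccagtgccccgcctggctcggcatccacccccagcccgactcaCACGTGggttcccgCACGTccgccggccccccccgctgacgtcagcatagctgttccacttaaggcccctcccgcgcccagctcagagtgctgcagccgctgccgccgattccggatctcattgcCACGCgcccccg
ENO1: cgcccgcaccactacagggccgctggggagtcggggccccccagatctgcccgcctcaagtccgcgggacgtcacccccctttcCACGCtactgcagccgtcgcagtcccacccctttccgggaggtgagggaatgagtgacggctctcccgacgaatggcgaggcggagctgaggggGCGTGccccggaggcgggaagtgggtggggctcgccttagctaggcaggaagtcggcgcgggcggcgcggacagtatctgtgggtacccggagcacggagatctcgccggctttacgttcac
TPI1: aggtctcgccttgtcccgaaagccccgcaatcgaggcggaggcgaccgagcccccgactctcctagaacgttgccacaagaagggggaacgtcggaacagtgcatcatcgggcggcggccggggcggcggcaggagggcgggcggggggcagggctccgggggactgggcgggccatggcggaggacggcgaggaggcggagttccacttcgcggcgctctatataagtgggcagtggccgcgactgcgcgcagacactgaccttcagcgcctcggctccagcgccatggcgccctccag

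The PGK1 window held 3 ACGTG, at -202, -183 and 28 bases from the start, and 1 GCGTG at -211. The first LDHA window held 5 ACGTG, of which those at -185 and -184 and those at -87 and -86 are CACGTG words counted on both strands, another at -73, and 1 GCGTG at 38. The other LDHA window, which is not shown, held 0 ACGTG and 1 GCGTG. ENO1 had 2 GCGTG (-166 and -72) and 0 ACGTG, and the first TPI1 window had 0 of either, while its other window had 1 of each. All 10 enzymes were matched by symbol, to 23 windows. Of these, 9 held ACGTG and 15 either word. Over all 35116 RefSeq windows, 21.4% held ACGTG, 36.5% GCGTG, 48.5% either word and 8.82% at least 2 ACGTG. The windows compared were not matched for their content of G and C. GPI, which also rose under TMM and is not shown, held 1 ACGTG in its 1 window. ALDOA held ACGTG in 3 of its 3 windows, and the 2 in the 1 window of GAPDH are a CACGTG counted on both strands. Neither gene passed the test with TMM factors over all genes tested, though other settings called ALDOA higher or GAPDH lower. ENO1, called higher under TMM, held 0 ACGTG and 2 GCGTG. A match describes letters and is no evidence of binding, and several windows belong to 1 gene.

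In the preparatory steps, GPI rose and the other 3 enzymes did not pass the test. HK1 (ENSG00000156515, chromosome 10 from 69269984 to 69401884, plus strand) encodes hexokinase 1, which traps glucose in the cell as glucose-6-phosphate. It had 14, 7, 22 and 13 counts in the siCTRL libraries and 6, 5, 9 and 10 in the siAPEX1 libraries, too few to settle a direction. Its log2 fold change was -0.24 (SE 0.336, adjusted p = 0.630), with a 95% interval from -0.90 to 0.42, and it came to 0.021 without siCTRL replicate 3.

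GPI (ENSG00000105220, chromosome 19 from 34359480 to 34402413, plus strand) turns glucose-6-phosphate into fructose-6-phosphate. Its CPM were 65.9, 60.5, 51.4 and 55.9 in the siCTRL libraries and 81.5, 61.7, 98.8 and 68.3 in the siAPEX1 libraries. Replicates 1, 3 and 4 of siAPEX1 lay above every siCTRL library, and replicate 2 lay within their range. The mean went from 58.4 ± 6.19 to 77.6 ± 16.4 CPM (SD, n = 4), a log2 fold change of 0.42 (SE 0.126, adjusted p = 0.00917). The call of GPI was lost without siCTRL replicate 3 (adjusted p = 0.0515), without siAPEX1 replicate 3 (0.0905) and in the edgeR fit of every gene with at least 1 count (0.0807), and with library size alone the log2 fold change was 0.074.

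PFKP (ENSG00000067057, chromosome 10 from 3066333 to 3137718, plus strand) is the platelet-type phosphofructokinase, which catalyses the committed step of the pathway. It ranged from 40.3 to 48.8 CPM in the siCTRL and from 43.7 to 64.1 CPM in the siAPEX1 libraries, with overlap. Its log2 fold change was 0.22 (SE 0.130, adjusted p = 0.198) and -0.12 with library size alone. ALDOA (ENSG00000149925, chromosome 16 from 30064164 to 30070457, plus strand) encodes aldolase A, which cleaves fructose-1,6-bisphosphate. Its CPM were 100.6, 91.5, 86.2 and 100.7 in the siCTRL libraries and 94.7, 94.1, 134 and 131 in the siAPEX1 libraries. Replicates 3 and 4 of siAPEX1 lay above every siCTRL library and replicates 1 and 2 lay among them. The log2 fold change of ALDOA was 0.27 (SE 0.113, adjusted p = 0.0653), the adjusted p falling to 0.0154 without siAPEX1 replicate 1 and 0.0133 without replicate 2, and the value changed sign to -0.076 with library size alone. ALDOA shares 1639 exon bases with ENSG00000285043, a gene on the same strand in GENCODE 44 for which the count table has no row.

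At the interconversion of the triose phosphates, TPI1 fell. TPI1 (ENSG00000111669, chromosome 12 from 6867119 to 6870948, plus strand) encodes triosephosphate isomerase, which turns dihydroxyacetone phosphate into glyceraldehyde-3-phosphate. Its CPM were 65.4, 48.4, 53.8 and 50.4 in the siCTRL libraries and 46.9, 43.0, 42.5 and 40.5 in the siAPEX1 libraries. The highest siAPEX1 library lay just under the lowest siCTRL library, and siCTRL replicate 1 stood above the rest. The mean went from 54.5 ± 7.59 to 43.2 ± 2.69 CPM (SD, n = 4), a log2 fold change of -0.33 (SE 0.129, adjusted p = 0.0425). This call was lost in the edgeR fit without siCTRL replicate 1 (adjusted p = 0.168) or 3 (0.0676) and without each of the siAPEX1 libraries, and with DESeq2 (0.171), while with library size alone TPI1 was at -0.68 (adjusted p = 3.84e-05).

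In the steps that yield NADH and ATP, PGK1 and ENO1 rose and GAPDH and PKM did not pass the test. GAPDH (ENSG00000111640, chromosome 12 from 6534512 to 6538374, plus strand) encodes the dehydrogenase that oxidises glyceraldehyde-3-phosphate. Its CPM were 665, 578, 582 and 573 in the siCTRL libraries and 542, 524, 584 and 494 in the siAPEX1 libraries. Replicate 3 of siAPEX1 lay among the siCTRL libraries and the others lay below them. The log2 fold change of GAPDH was -0.16 (SE 0.0882, adjusted p = 0.167) with a 95% interval from -0.33 to 0.011, and with library size alone it was -0.50 (adjusted p = 9.66e-06). Among genes that reached 10 counts in each library, GAPDH was called lower as well (-0.25, adjusted p = 0.0234 in edgeR). The call of GAPDH thus depends on the scaling and the filter, and relative to it other enzymes differ more, as given further on.

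PGK1 (ENSG00000102144, chromosome X from 77910739 to 78129295, plus strand) encodes phosphoglycerate kinase 1, which makes the first ATP of the pathway. It had 136, 111, 98 and 108 counts in the siCTRL libraries and 124, 113, 165 and 113 in the smaller siAPEX1 libraries. After scaling these were 68.4, 53.8, 45.4 and 59.8 CPM in the siCTRL libraries and 102, 91.7, 119 and 89.8 CPM in the siAPEX1 libraries. Every siAPEX1 library lay above every siCTRL library, with a wide gap between the groups. The mean went from 56.8 ± 9.69 to 100.6 ± 13.4 CPM (SD, n = 4), a log2 fold change of 0.83 (SE 0.121, adjusted p = 5.07e-07). PGK1 was called in the same direction in all 18 alternatives that refit or rescale the counts, and at the log2 threshold of 0.75 but not of 1, with a log2 fold change of 0.49 to 0.93 and an adjusted p of 5.45e-10 to 9.31e-04. With library size alone its value was 0.49, whereas the median of all genes was then -0.34. The exons of PGK1 share 97 bases with ATP7A on the same strand, and ATP7A had 97 counts over the 8 libraries against 968 for PGK1.

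PGAM1, which encodes the phosphoglycerate mutase of the next step, is no member of the set and had 1 to 6 counts per library, too few to be tested. ENO1 (ENSG00000074800, chromosome 1 from 8861000 to 8879190, minus strand) encodes enolase 1, which makes phosphoenolpyruvate. Its CPM were 124, 86.7, 101 and 106 in the siCTRL libraries and 133, 133, 139 and 116 in the siAPEX1 libraries. Only siCTRL replicate 1 reached into the range of the siAPEX1 libraries. The mean of ENO1 went from 104.7 ± 15.5 to 130.4 ± 10.01 CPM (SD, n = 4), a log2 fold change of 0.32 (SE 0.106, adjusted p = 0.0182) that changed sign to -0.024 with library size alone. The call of ENO1 was also lost with DESeq2 (adjusted p = 0.0640), in the edgeR fits of every gene with at least 1 count (0.231) and of genes that reached 10 counts in each library (0.0846), and without siCTRL replicate 2 (0.107) or 3 (0.0559).

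PKM (ENSG00000067225, chromosome 15 from 72199029 to 72231819, minus strand) encodes the muscle-type pyruvate kinase, both M1 and M2 forms of which are counted in this 1 row. It had 131 to 142 CPM in the siCTRL libraries and 119 to 136 CPM in the siAPEX1 libraries, with overlap, and its spread was the smallest of the 10 enzymes relative to its level in the siCTRL libraries. Its log2 fold change was -0.083 (SE 0.0960, adjusted p = 0.556), with a 95% interval from -0.27 to 0.11. With library size alone it was -0.42 (adjusted p = 4.93e-04), close to the median of all genes under that scaling.

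At the lactate step, LDHA rose. LDHA (ENSG00000134333, chromosome 11 from 18394560 to 18408425, plus strand) encodes the A subunit of lactate dehydrogenase. Its CPM were 65.9, 57.1, 72.3 and 61.4 in the siCTRL libraries and 84.0, 86.8, 92.3 and 85.0 in the siAPEX1 libraries. Every siAPEX1 library lay above every siCTRL library, and the siAPEX1 libraries lay close together. The mean went from 64.2 ± 6.47 to 87.0 ± 3.69 CPM (SD, n = 4), a log2 fold change of 0.44 (SE 0.110, adjusted p = 0.00178). LDHA kept its call in 17 of the 18 alternatives that refit or rescale the counts, fell short of the log2 thresholds of 0.75 and 1, and lost its call with library size alone, where its log2 fold change was 0.095 (adjusted p = 0.521).

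**Figure D2:**
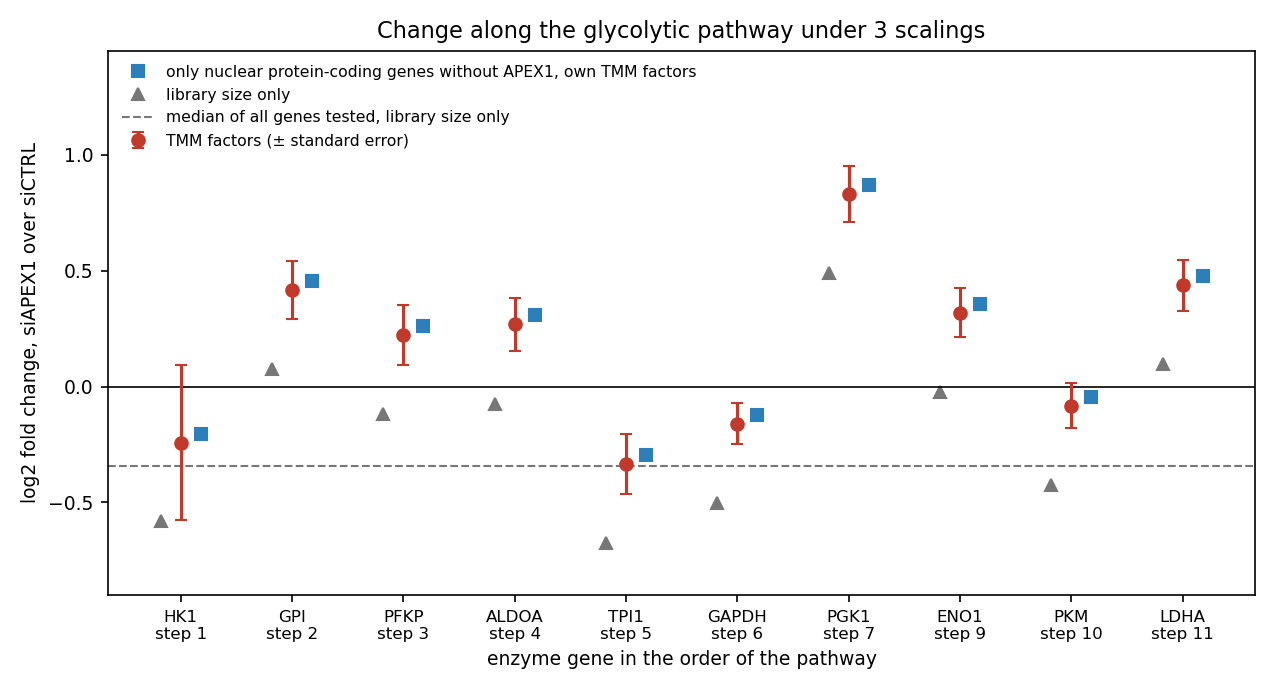
Log2 fold change (siAPEX1 over siCTRL) of each enzyme gene in the order of the pathway, with TMM factors (red circles, ± SE), with nuclear protein-coding genes alone and APEX1 left out (blue squares) and with library size alone (grey triangles), the dashed line being the median of all genes under the latter. PGK1 stands highest under each scaling, and PFKP, ALDOA and ENO1 lie above 0 under TMM and below 0 with library size alone.

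With TMM factors, 50.3% of the genes called were higher, against 14.9% with library size alone, so measures that no scaling factor of the libraries moves are described as well. The first is the share of each enzyme in the summed counts of the 10. GAPDH made up 47.96% to 49.8% of these counts in the siCTRL libraries and 41.3% to 42.5% in the siAPEX1 libraries. PGK1 went from 4.63% ± 0.557 to 7.86% ± 0.482 (SD, n = 4), LDHA from 5.26% ± 0.586 to 6.83% ± 0.290 and ENO1 from 8.53% ± 0.749 to 10.2% ± 0.505, each with every siAPEX1 library above every siCTRL library. TPI1 went the other way, from 4.44% ± 0.309 to 3.40% ± 0.272, again with no overlap. HK1, GPI, PFKP, ALDOA and PKM overlapped between the groups. How many of all genes would separate on such a share was not computed. In CPM, GAPDH and ENO1 overlapped as well, and 3 of the 10 enzymes did not overlap, beside 28.9% of all genes tested. Shares of 1 total depend on each other, so the lower share of GAPDH alone raises those of the others.

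The second measure is the count of each enzyme over that of GAPDH in the same library. The mean of log2(count / GAPDH count) was higher in the siAPEX1 than in the siCTRL libraries by 0.99 for PGK1, 0.61 for LDHA, 0.55 for GPI, 0.49 for ENO1 and 0.37 for PFKP. In these 5 of 9 enzymes the groups did not overlap. The share of all genes that do not overlap on this ratio was not computed, and in CPM it was 28.9%. GAPDH itself was at -0.16 with TMM factors, not called, and a lower divisor lifts every ratio. For ALDOA the difference was 0.40, for PKM 0.078, for HK1 -0.028 and for TPI1 -0.16, with overlap in all 4. A ratio of this kind shows unequal change of 2 transcripts and not which of them moved.

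**Figure D3:**
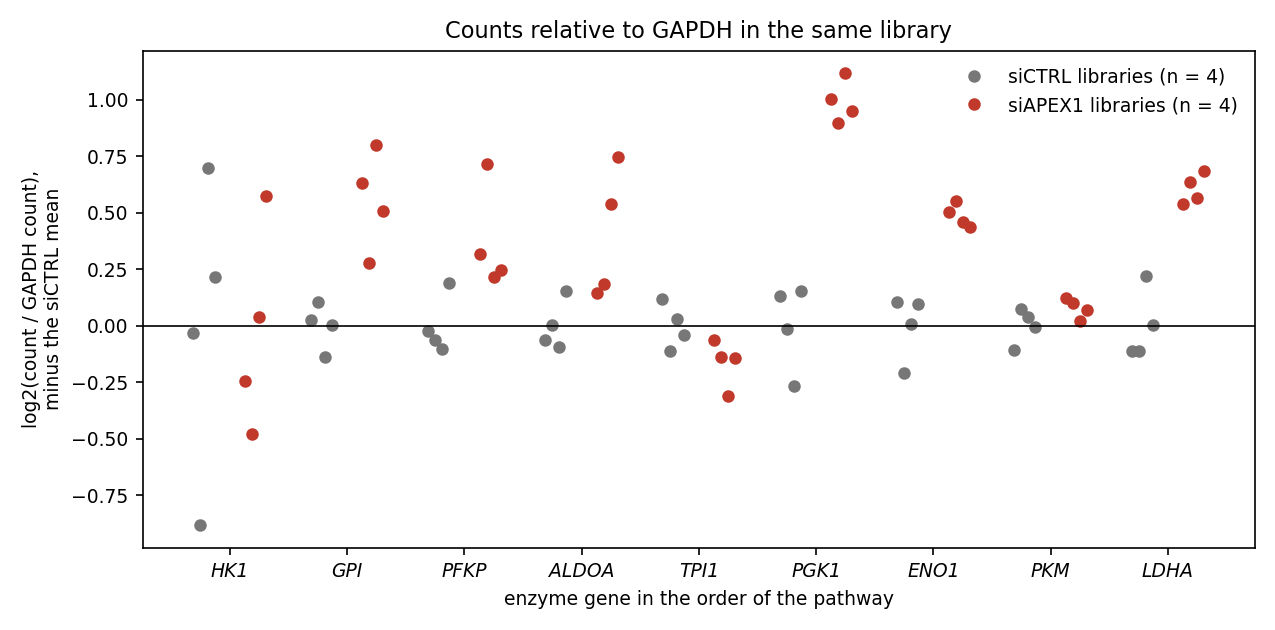
Log2 of each enzyme's count over the GAPDH count of the same library, minus the siCTRL mean, with 1 point per library (siCTRL grey, siAPEX1 red). The siAPEX1 points of GPI, PFKP, PGK1, ENO1 and LDHA lie above all their siCTRL points, and those of HK1, ALDOA, TPI1 and PKM overlap them.

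A summed share also needs no scaling factor, but its direction turned with the denominator. Of the nuclear protein-coding counts without those of APEX1, the 10 enzymes took 0.872% ± 0.0570 in the siCTRL and 0.909% ± 0.0601 in the siAPEX1 libraries (SD, n = 4), which overlap. APEX1 was left out of this denominator because of its 19470 to 27916 counts in the siAPEX1 libraries, against 47 to 64 in the siCTRL libraries. Counting it would lower the siAPEX1 shares and can turn the direction, and those shares are not given here. Without GAPDH the other 9 took 0.444% ± 0.0299 and 0.528% ± 0.0364 of that denominator without APEX1, with every siAPEX1 library higher. With APEX1 counted this separation is lost, since siCTRL replicate 1 would then lie among the siAPEX1 libraries. Without PGK1 the sum was 0.831% ± 0.0519 and 0.838% ± 0.0510. As a share of all counts, the 10 enzymes were lower in every siAPEX1 library, 0.111% ± 0.00777 against 0.134% ± 0.0109. Most of all counts did not fall on nuclear protein-coding genes. With APEX1 included, these genes held 14.996% to 15.7% of the counts in siCTRL and 13.4% to 14.3% in siAPEX1 libraries.

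Levels can be compared between the enzymes only per length. As CPM per kilobase of merged exons, GAPDH stood highest, at 250.2 in the siCTRL and 223.6 in the siAPEX1 libraries, and HK1 lowest, at 1.01 and 0.852. In the siCTRL libraries the order below GAPDH was ALDOA (24.7), TPI1 (20.2), ENO1 (20.1), PKM (16.1), LDHA (10.7), PGK1 (10.5), PFKP (5.75) and GPI (5.47). Among these, the ranges of the neighbours ALDOA and TPI1, TPI1 and ENO1, LDHA and PGK1, and PFKP and GPI overlapped. In the siAPEX1 libraries it was ALDOA (29.6), ENO1 (25.0), PGK1 (18.5), TPI1 (16.0), PKM (15.2), LDHA (14.4), GPI (7.26) and PFKP (6.71), so that PGK1 stood in place 4 in place of 7 and TPI1 in place 5 in place of 3. Here the neighbours ALDOA and ENO1, PGK1 and TPI1, TPI1 and PKM, PKM and LDHA, and GPI and PFKP overlapped. Merged exons include those of transcripts these cells may not use, which lowers the value of a gene with a long annotation.

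The enzyme of each step was also set against the other isozymes of that step, as a share of their counts per kilobase within a library. PFKP, the platelet form, made up 72.2%, 67.4%, 68.2% and 69.9% of the phosphofructokinase transcripts in the siCTRL libraries and 72.4%, 87.4%, 78.5% and 75.9% in the siAPEX1 libraries, the rest being the muscle form PFKM and the liver form PFKL. Each siAPEX1 library was above each siCTRL library, replicate 1 only just, but the difference did not pass the adjustment over the 5 shares tested (two-sided exact permutation p = 0.0286, the smallest possible with 4 against 4, adjusted p = 0.143). PFKM had 30, 31, 28 and 32 counts in the siCTRL and 20, 9, 13 and 13 in the siAPEX1 libraries, with a log2 fold change of -0.48 in edgeR (adjusted p = 0.117). HK1 made up 39.1% ± 11.9 and 56.6% ± 16.5 of the hexokinase transcripts (SD, n = 4), with an exact permutation p of 0.143 (adjusted p = 0.238). HKDC1 accounted for most of the rest, with 13, 12, 11 and 14 counts in the siCTRL and 1, 4, 3 and 7 in the siAPEX1 libraries, below the filter. HK2 had at most 1 count per library. For ADPGK, which phosphorylates glucose with ADP, the log2 fold change was 0.31 (adjusted p in edgeR 0.465).

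ALDOA held 95.3% and 96.5% of the aldolase transcripts in the siCTRL and siAPEX1 libraries, and ENO1 held 81.0% and 85.9% of the enolase transcripts, with ENO2, the neuronal form, as most of the rest beside a few counts of ENO3 (log2 fold change of ENO2 -0.10, adjusted p in edgeR 0.776). Their exact permutation p-values were 0.371 and 0.200, with adjusted values of 0.371 and 0.250. PKM was not compared with its isozyme, since PKLR, the liver and red cell pyruvate kinase, had 0 counts. LDHA made up 22.6% ± 1.52 of the lactate dehydrogenase transcripts in the siCTRL and 24.5% ± 0.433 in the siAPEX1 libraries (exact permutation p = 0.0857, adjusted p = 0.214). LDHB, the other main subunit, was the more abundant per length in both groups, with 105 to 112 CPM in siCTRL and 128 to 143 CPM in siAPEX1 libraries. It rose under TMM, by 0.29 on the log2 scale (SE 0.0965, adjusted p = 0.0197 in edgeR), and its value with library size alone was -0.056. Unlike that of LDHA, the call of LDHB was lost with DESeq2 (adjusted p = 0.0599), with both other filters on low counts (0.348 and 0.0939) and without siCTRL replicate 2 (0.0560) or siAPEX1 replicate 3 (0.0544).

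The further genes of the pathway were read from 5 lists with 58 genes, other isozymes, transporters, regulators, entry of pyruvate into mitochondria and gluconeogenesis. Of these, 23 could be tested, 5 were higher and 2 lower, beside 15.9% higher and 15.8% lower over all genes tested, and their median log2 fold change was 0.10. Transport had 1 higher and 1 lower of 6 tested, the regulators 3 higher and 0 lower of 5, pyruvate entry 0 higher and 1 lower of 7, gluconeogenesis 0 of 1 (PCK2, log2 fold change -0.29, adjusted p = 0.450 in edgeR), and the other isozymes 1 higher (LDHB) of 4. With library size alone, 1 of the 23 was higher and 9 were lower.

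At the membrane, SLC16A1, which encodes the lactate transporter MCT1, had 7.04, 6.30, 6.02 and 7.75 CPM in the siCTRL libraries and 14.0, 8.12, 14.4 and 15.1 CPM in the siAPEX1 libraries. The groups did not overlap, and siAPEX1 replicate 2 lay closest to the controls. The log2 fold change of SLC16A1 was 0.94 (SE 0.258, adjusted p = 0.00436) and 0.60 (adjusted p = 0.0602) with library size alone. SLC2A3, which encodes the glucose transporter GLUT3, had 10.1, 13.1, 10.2 and 12.7 CPM in the siCTRL and 7.41, 3.25, 10.8 and 4.77 CPM in the siAPEX1 libraries. Only siAPEX1 replicate 3 reached the range of the controls. Its log2 fold change was -0.78 (SE 0.286, adjusted p = 0.0341), and the call was lost with DESeq2 (adjusted p = 0.123), with the replicate number as a block (0.0597) and without siCTRL replicate 2 or 4 or siAPEX1 replicate 1, 2 or 4 (0.0576 to 0.177).

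Among the regulators, HIF1A and EPAS1, which encode the oxygen-regulated subunits of the hypoxia-inducible factors, were higher. HIF1A had 107, 110.4, 107 and 96.3 CPM in the siCTRL libraries and 147, 151, 169 and 158 CPM in the siAPEX1 libraries, with no overlap, and its log2 fold change was 0.57 (SE 0.0970, adjusted p = 8.57e-06) or 0.23 (adjusted p = 0.0576) with library size alone. EPAS1 had 20.6, 22.3, 19.0 and 23.8 CPM in the siCTRL and 42.0, 43.8, 32.4 and 44.5 CPM in the siAPEX1 libraries, with no overlap, and its log2 fold change of 0.92 (SE 0.152, adjusted p = 5.64e-06) stayed called with library size alone. These are transcript levels, and the amount of the proteins, which is set mostly by their degradation, was not measured. PFKFB3, whose product makes the activator of phosphofructokinase, fructose-2,6-bisphosphate, was at 27.2, 27.1, 27.8 and 21.0 CPM in the siCTRL and 35.4, 30.8, 43.97 and 27.8 CPM in the siAPEX1 libraries, with the lowest siAPEX1 library among the controls. Its log2 fold change was 0.42 (SE 0.158, adjusted p = 0.0368), and the call was lost with DESeq2 (adjusted p = 0.136), with library size alone, with both other filters on low counts and without siCTRL replicate 4 or siAPEX1 replicate 1 or 3.

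At the entry of pyruvate into mitochondria, PDK4 fell. PDK4 encodes a kinase that inactivates pyruvate dehydrogenase and so holds back the oxidation of pyruvate. It had 30.7, 35.8, 33.4 and 36.5 CPM in the siCTRL libraries and 15.6, 17.0, 15.1 and 16.7 CPM in the siAPEX1 libraries. The groups lay far apart, with little spread in either. Its log2 fold change of -1.08 (SE 0.167, adjusted p = 1.83e-06) was the 1 value past 1 in size among the 33 glycolytic and other pathway genes tested, and PDK4 was called lower under each alternative run.

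**Figure D4:**
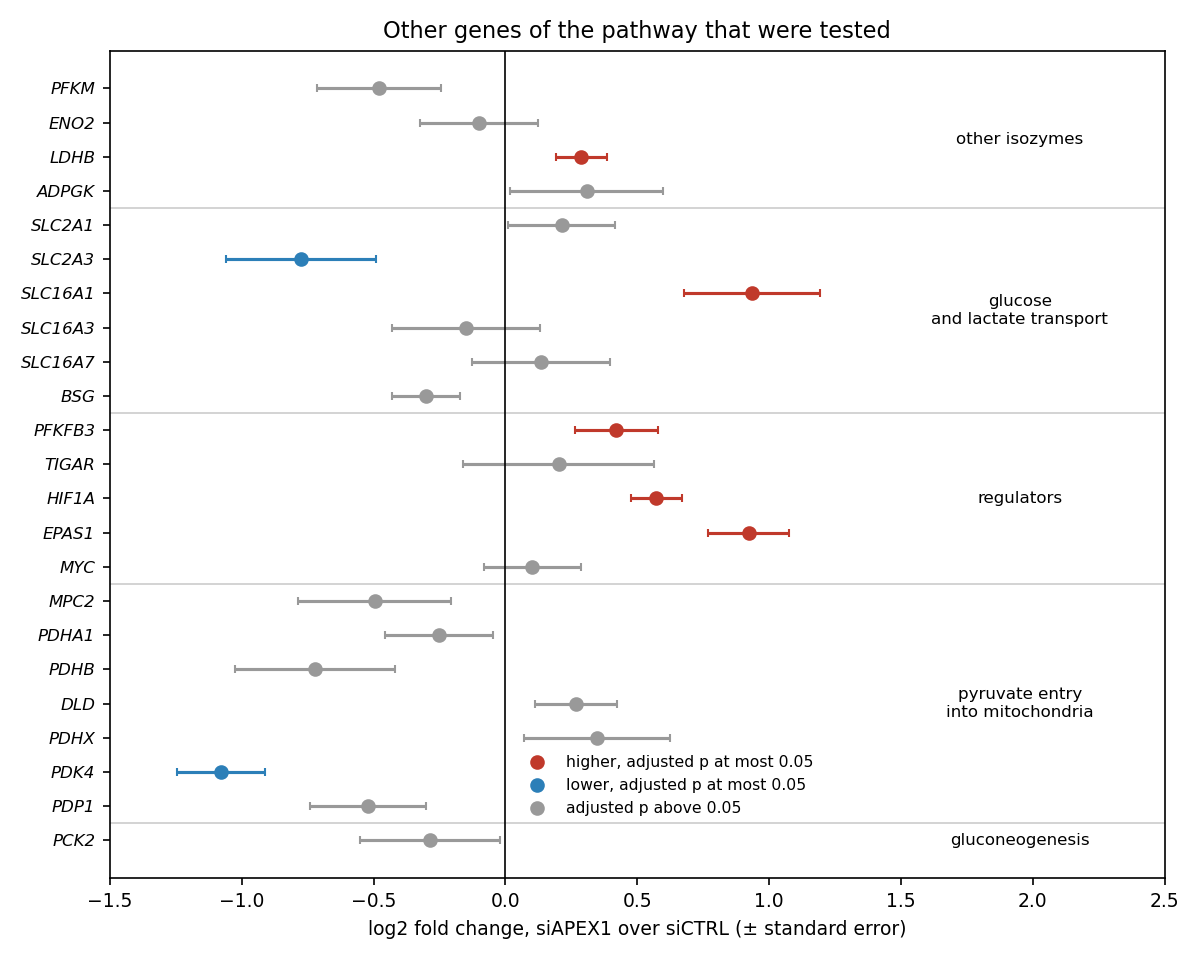
Log2 fold change (siAPEX1 over siCTRL, TMM scaling, ± SE) of the 23 further pathway genes that could be tested, grouped by list, with red for higher, blue for lower and grey for not called at an adjusted p of 0.05. LDHB, SLC16A1, PFKFB3, HIF1A and EPAS1 lie to the right and SLC2A3 and PDK4 to the left; with library size alone LDHB lies at -0.056.

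Processed pseudogenes can share reads with several of these enzymes. GENCODE 44 names 88 pseudogenes after 7 of the 10 enzymes, 65 of them after GAPDH, and together they had 26 counts over the 8 libraries, of which 12 were on those of GAPDH beside 7542 on GAPDH itself. Reads that map to several places are not counted by the authors' counter, so reads lost to pseudogenes are not seen in these values. On the opposite strand, SPSB2 shares 14 exon bases with TPI1 and ENO1-AS1 shares 126 with ENO1, with 63 and 6 counts in all. The strand setting of the counting is not given in the sources used here.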

How the data were processed

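A549 cells were transfected with the APE1 siRNA or the scramble control siRNA with DharmaFECT, in quadruplicate, and RNA was taken 72 h later. Per the labels and the methods of the study, libraries were made from total RNA with the SMARTer smRNA-Seq kit, changed so that primary transcripts are read too. The authors trimmed reads with cutadapt, aligned them to GRCh38 with STAR (2.5.3a in the submitters' processing notes) and deposited raw counts of reads per Ensembl gene, without normalization. The annotation release is not given in the sources used here. A kit of this kind tails short and fragmented RNA, so counts on mRNAs need not follow those of a standard mRNA library.

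GENCODE 44 matched 57532 of the 58302 identifiers and gave symbols, places and merged exon lengths. The column of siCTRL replicate 3 was matched by its replicate number, since the prefix of its sample title repeats that of replicate 2. Counts were tested with edgeR 4.0.16 in R 4.3.3 (TMM factors, filterByExpr with its minimum count at 10 and its minimum total at 15, quasi-likelihood fit of all 8 libraries, Benjamini-Hochberg over 5368 genes), and genes were called when the adjusted p was at most 0.05. CPM are counts over the TMM-scaled library size, and each SE is the size of the log2 fold change over the root of its F statistic. Isozyme shares were compared by two-sided exact permutation of the 70 labelings, with 0.0286 as the smallest possible p. The labels do not say that the libraries came from separate cultures, though the study calls them biological replicas, so p-values measure the spread between these samples. Scripts were tested on simulated data.

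The alternatives were RLE and upper-quartile factors, library size alone, factors or genes restricted to nuclear protein-coding genes, APEX1 left out, DESeq2 1.42.0, other filters on low counts, log2 thresholds of 0.75 and 1, a block by replicate number, and each library left out. The share without PGK1 and the composition of the 10 enzymes were added after the data were seen. The 10 enzymes and the 5 further lists were chosen with earlier results of these data known. Named were all 10 enzymes, and of the further lists each called gene and each isozyme that passed the filter. Promoter windows came from a RefSeq table of GRCh38.p14. The list of leukocyte markers is not reported here as a whole. NanoString and qRT-PCR data were not analysed here.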

Additional observations from a re-analysis of the deposited data

Results flagged for a closer look

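Among 46 groups of 4 libraries checked for a library far from the others, 5 held one (the gap to the nearest library, over the whole range of the group, was past Dixon's 95% critical value), and chance alone marks about 1 group in 20. In siCTRL replicate 1, GAPDH stood at 665 CPM against 573 to 582 in the other siCTRL libraries, and the summed share of the 10 enzymes was 0.956% against 0.834% to 0.851%. GAPDH held 49.1% of the summed counts of the 10 in that library, so these flags are not independent. In siCTRL replicate 4, ALDOA held 98.4% of the aldolase transcripts against 94.1% to 94.5% in the other siCTRL libraries, and PFKFB3 was at 21.0 CPM against 27.1 to 27.8. In siAPEX1 replicate 2, SLC16A1 was at 8.12 CPM against 14.0 to 15.1 in the other siAPEX1 libraries. What set these libraries apart was not tested.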

How the results depend on the processing

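Of 179 log2 fold changes of the 10 enzymes recomputed under an alternative, 149 kept their direction and their side of the threshold. The cause of a change was not tested. With library size alone, which moves the median of all genes to -0.34, the log2 fold changes of PFKP (-0.12), ALDOA (-0.076) and ENO1 (-0.024) changed sign, 1 enzyme was called higher and 3 lower, and of the other pathway genes 1 was higher and 9 lower. With all counts as the denominator, the difference in the summed share was -0.0232 percentage points. With TMM factors from nuclear protein-coding genes, or with only those genes and APEX1 left out, 0 enzymes were lower (TPI1 at adjusted p = 0.0811 and 0.0715) and ALDOA was called higher (0.02998 and 0.0178 in edgeR). DESeq2 called 3 enzymes, 0 of them lower, 4 other pathway genes (3 higher, 1 lower) and 1123 of all genes. With every gene of at least 1 count, 3 enzymes were called, 2 of them higher, and with at least 10 counts in every library 2 enzymes were lower and 3 other pathway genes higher. At a log2 fold change of at least 0.75, 1 enzyme was called (1 higher, 0 lower), 4 other pathway genes (2 higher) and 935 genes in all. At 1 there were 0 enzymes (0 higher, 0 lower), 1 other pathway gene (0 higher, 1 lower) and 498 genes in all.

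Leaving out 1 library at a time gave 2 to 5 enzymes called (2 to 5 higher, 0 to 1 lower), 5 to 9 other pathway genes (3 to 5 higher, 1 to 4 lower) and 1516 to 1659 genes in all, the lowest count of enzymes being without siCTRL replicate 3, where HK1 changed sign to 0.021 (its lowest value was -0.48). The difference in the summed share ran from 0.00905 to 0.0660 percentage points.

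Same-numbered libraries did not deviate together (correlations of -0.0373 to -0.00348, against -0.0397 to 0.0357 for different numbers). With the replicate block, 5 enzymes were called as before and 1 other pathway gene was lower in place of 2. Depth limits genes with few counts, HK1 among the 10 enzymes, and an enzyme with few counts can differ without a call.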

Other observations

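The 6 tested genes of pyruvate entry that were not called had log2 fold changes of -0.72 to 0.35. A pair of genes of the lists lay under the filter on low counts and are named after their values were seen. PDK1, a kinase of the same family as PDK4, had 0, 3, 4 and 0 counts in the siCTRL libraries and 6, 6, 13 and 9 in the siAPEX1 libraries, the opposite direction to PDK4. Its adjusted p was 6.64e-06 in the edgeR fit of every gene with at least 1 count. SLC37A4, which encodes the transporter of glucose-6-phosphate into the endoplasmic reticulum, had 9, 6, 12 and 9 counts in the siCTRL libraries and 2, 2, 1 and 1 in the siAPEX1 libraries, with an adjusted p of 0.00909 in that fit. Both rest on few counts.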
